A study of Mus musculus with 20 samples.

Results

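The tumor necrosis factor (TNF) superfamily, ligands and receptors, was followed in the mouse uterus at 18:00 on day 3.5 of pregnancy, shortly before embryo attachment. Its 45 genes were chosen by symbol from the 45777 genes of the table: every gene named Tnfsf or Tnfrsf with a number, without Tnfrsf17, together with Tnf, Lta, Ltb, Ltbr, Fas, Fasl, Cd40, Cd40lg, Cd27, Cd70, Ngfr, Eda, Edar and Eda2r. The 45 genes comprised 18 ligands, 26 receptors and 1 long noncoding RNA, Tnfsf13os, that the symbol rule brought in. The rule uses symbols and no measured value, but the members were chosen with earlier results of these data known.

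All animals were wild-type (WT) B6D2F1 females aged 8 to 12 weeks, mated with males, and their uteri were taken at 18:00 on day 3.5. The control group received no treatment. The implantation failure (IF) group received RU486 (mifepristone, a blocker of the progesterone receptor and the glucocorticoid receptor), injected under the skin at 3 mg/kg at 9:00 on day 3.5. The PBMC group received the same RU486 and, on day 1.5, 50000 peripheral blood mononuclear cells (PBMCs) in each uterine horn, taken from non-pregnant mice and cultured for 24 h. The PBMC-hCG group differed from the PBMC group in that the cells had been cultured with human chorionic gonadotropin (hCG, the early hormone of human pregnancy) at 5 IU/mL. Each group held 5 mice and each mouse gave 1 library from polyA RNA. IF, PBMC and PBMC-hCG mice thus all carried RU486, and only the control mice did not. No group was injected under the skin without RU486, so the drug cannot be told apart from its injection. The horn was sequenced whole, so its epithelium, stroma, vessels, muscle and immune cells were measured together. A lower value in such bulk tissue may reflect fewer cells of a type or less RNA per cell, and these cannot be told apart. Transcripts of the injected mouse cells cannot be told apart from those of the uterus, and with no medium-injected library analysed here the injection cannot be told apart from the cells.

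Ligands of the TNF superfamily are mostly membrane proteins that act as trimers and can be shed by metalloproteinases such as ADAM17. Their receptors fall into those with a death domain, which can recruit caspase-8 or start inflammatory signaling, those without one, which bind TRAF adaptors and activate NF-kappaB, and decoys, which bind a ligand without passing the signal on. In the uterus the family is known from macrophages, natural killer cells, epithelium and stroma, where its members take part in cell death, tissue remodeling and the handling of immune cells.

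Values are TPM, transcript levels scaled to transcript length and to the library total, which can be compared between genes. Fold changes are differences of log2(TPM + 0.1), given with their standard error (SE), and understate the change of genes near 0 TPM. A gene was called when its limma p-value, adjusted by the Benjamini-Hochberg method over the 18706 genes above 0 TPM in all 20 libraries, was below 0.05. Of the 45 genes, 38 entered that test (12 ligands, 25 receptors and Tnfsf13os). Lta, Tnfsf4, Tnfsf15, Tnfsf18, Cd40lg, Cd70 and Tnfrsf8 were at 0 TPM in at least 1 library and were not tested, so counts of called genes cover the 38 and not all 45. IF and PBMC-hCG libraries each served 3 comparisons, and control and PBMC libraries 2 each, so the comparisons are not independent of each other.

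The family is spread over 14 chromosomes (RefSeq positions, GRCm38.p6, the build of mm10), and 24 of the 45 genes lie in 9 clusters with gaps of at most 1000 kb. Ltb, Tnf and Lta form one cluster at chr17:35194507-35205578, and Tnfsf9, Cd70 and Tnfsf14 another at chr17:57105287-57194181. Tnfrsf1a, Ltbr and Cd27 sit together at chr6:125232620-125362483. Tnfrsf26, Tnfrsf22 and Tnfrsf23 at chr7:143607685-143686436 are close copies of each other, and reads shared among them make their separate values uncertain. Tnfsf13os, on the plus strand at chr11:69682032-69691141, overlaps Tnfsf13 and Tnfsf12 on the minus strand. The library kit keeps strand, but whether the quantification used it is not given in the sources used here, so these 3 values are uncertain as well.

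Promoter letters are shown for 2 receptors with large changes, Ngfr and Tnfrsf12a, and for the 3 genes whose promoter windows held an interferon-stimulated response element core. RefSeq windows of 250 bases before a transcription start were given for 34 of the 45 genes (38 windows). Both sequences below are cut where an annotated exon begins, are written 5′ to 3′ on the minus strand, and carry GC boxes (GGGCGG, either strand) in capitals.
Ngfr, chr11:95587736-95587948: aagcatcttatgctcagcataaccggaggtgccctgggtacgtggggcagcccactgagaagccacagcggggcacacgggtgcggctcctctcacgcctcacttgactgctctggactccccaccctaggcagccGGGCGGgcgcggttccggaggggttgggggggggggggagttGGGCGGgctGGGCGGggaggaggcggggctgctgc
Tnfrsf12a, chr17:23677469-23677699: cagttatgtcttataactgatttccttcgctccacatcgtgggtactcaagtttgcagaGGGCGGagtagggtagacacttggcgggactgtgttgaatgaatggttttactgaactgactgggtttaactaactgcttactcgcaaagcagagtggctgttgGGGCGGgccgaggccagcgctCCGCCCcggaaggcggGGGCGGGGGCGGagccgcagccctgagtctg

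The Ngfr stretch of 213 bases held 3 GC boxes at a GC content of 70.9%, and the Tnfrsf12a stretch of 231 bases held 5 at 57.6%. A GC box was present in 17 of the 38 family windows (44.7%), compared with 32.7% of the 32851 windows of all genes. The interferon-stimulated response element core (either strand) was present in 3 of the 38 windows (7.89%) and in 2.98% of all windows. Its 3 carriers are shown with 30 bases each and the core in capitals, on the strand of the gene.
Tnfrsf14, chr4:154928122-154928151, minus strand: ctattttttcTTTCATTTTCacttttcctt
Tnfrsf1b, chr4:145246871-145246900, minus strand: cctagctcctggcctgagggTTTCGCTTTC
Tnfsf13b, chr8:10006603-10006632, plus strand: atcttacaaaaactGAAAGTGAAAtgcgga

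All 3 carriers were among the 17 genes called in at least 1 comparison, 12 of which had a window. Over all genes, neither the share of carriers called nor the share called in at least 1 comparison was computed. No link between the element and the calls is therefore drawn. An AP-1 site (TGANTCA, either strand) was present in 15.8% of family windows and 6.75% of all windows, and the NF-kappaB consensus in 10.5% and 5%. Of the 14 windows of called genes, 3 held the interferon core, 2 an AP-1 site, 7 a GC box and 0 the NF-kappaB consensus. The receptor half-site AGAACA, to which progesterone and glucocorticoid receptors bind, was found in 0 of the 38 windows and in 16.1% of all windows, and the estrogen response element in 0 of 38 and 0.0639%. The cores of Tnfrsf14 and Tnfsf13b lie inside the RefSeq bounds of these genes, before a start within the gene. The other window of Tnfsf13b held no core. Family windows were not matched to all windows for GC content, which bears on such matches. The estrogen response element is so rare that 38 windows cannot show a lack of it. Matches describe the letters only.

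Libraries within a group were alike apart from control replicate 2. Its median correlation with the other control libraries (log2 scale, all tested genes) was 0.963, whereas the other 19 libraries lay between 0.980 and 0.990 in their own groups. Uterine genes were present throughout, with Esr1 at 98.0 to 166 TPM, Pgr at 38.03 to 168 TPM and Hoxa10 at 96.4 to 281 TPM. Their levels also moved with the groups. Of 7 uterine markers, 2 were called higher and 3 lower in IF against control, and 2 higher and 4 lower in PBMC-hCG against control. In PBMC-hCG against IF, 1 of the 7 was called higher and 0 lower. Markers of other cell types moved with the groups. In the IF group compared to the control group, 4 of 5 epithelial and 4 of 4 endothelial markers were called higher, as were 2 of 6 macrophage, 1 of 7 T cell, 1 of 6 natural killer cell and 1 of 3 neutrophil markers. Of the plasma cell markers 1 of 3 tested was lower, and the summed level of 4 plasma cell markers ranged from 34.8 to 174 TPM against 102 to 256 TPM. In the PBMC-hCG group compared to the control group, 4 of 5 epithelial, 4 of 4 endothelial, 3 of 7 T cell, 3 of 6 natural killer cell, 2 of 6 macrophage, 1 of 3 neutrophil and 1 of 4 stromal markers were called higher. Lower were 3 of 4 smooth muscle, 2 of 3 plasma cell and 1 of 5 red cell markers. In the PBMC-hCG group compared to the IF group, 1 of 5 epithelial and 1 of 4 stromal markers were called higher and 2 of 5 red cell markers lower, with no T cell, natural killer cell or macrophage marker called. The part of these cell types in the results that follow was not tested.

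The 4 most abundant members were receptors. Tnfrsf1a, the main receptor of TNF, was the most abundant member with a mean of 223 TPM over the 20 mice, followed by Ngfr, the low-affinity neurotrophin receptor, with 148 TPM, the lymphotoxin beta receptor Ltbr with 80.1 TPM and death receptor 6, Tnfrsf21, with 42.8 TPM. Tnfrsf1a lay at percentile 97.0 of all tested genes by mean level and Tnf itself at percentile 12.0. Tnfsf12 (TWEAK) was the most abundant ligand with 42.3 TPM, ahead of Tnfsf10 (TRAIL) with 27.2 TPM and Ltb with 11.4 TPM. Ranges of Tnfsf12 (30.6 to 55.1 TPM) and Tnfrsf21 (29.0 to 59.1 TPM) overlapped, as did those of Ltb and Tnfsf13b, so that these neighbours in the order are not separated by their spread. At the low end, Tnfsf8, Tnf, Edar, Tnfsf11 and Tnfrsf13c had means of 0.903, 0.669, 0.564, 0.456 and 0.355 TPM.

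**Figure D1:**
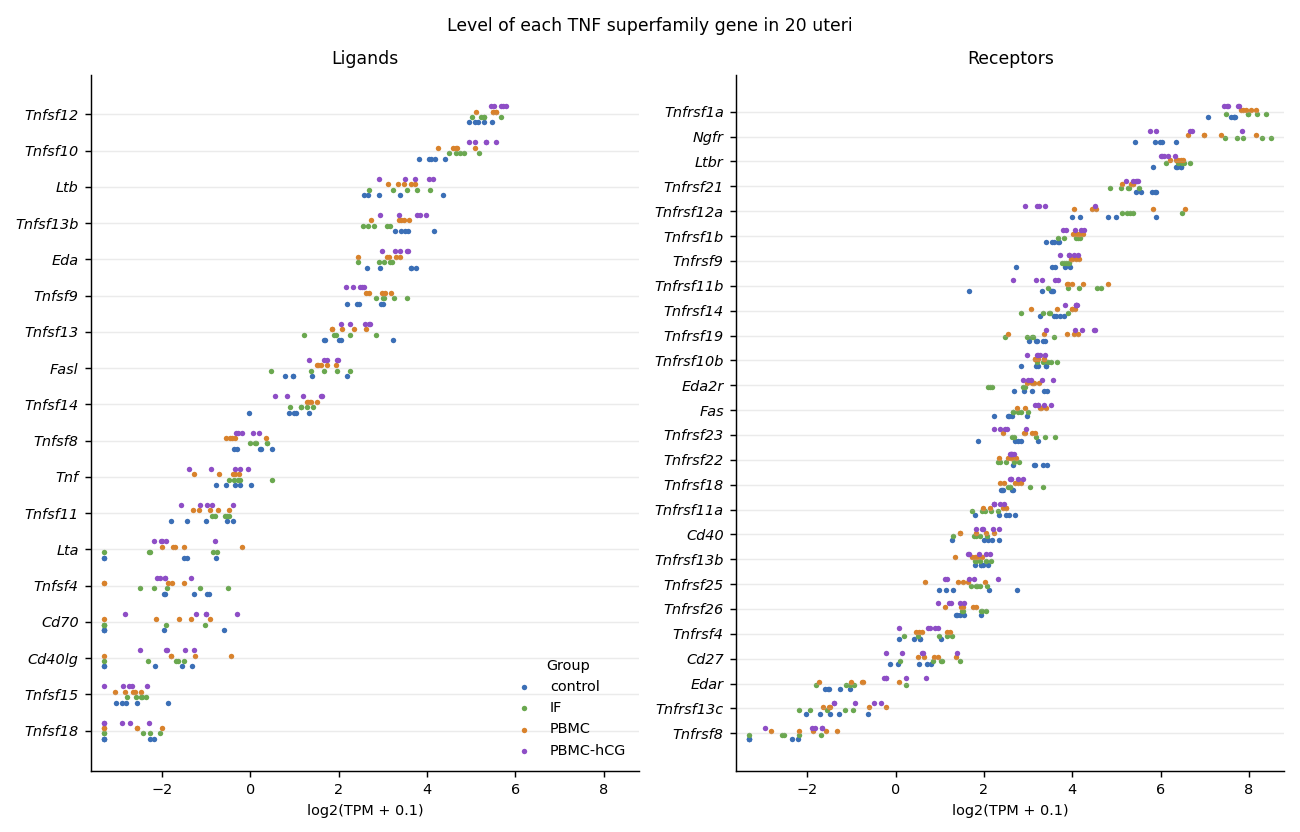
Level of each ligand (left) and receptor (right) in 20 uteri as log2(TPM + 0.1), 1 point per mouse, colored by group and ordered by mean level. Tnfrsf1a and Ngfr lie at the top of the receptors, and 7 genes touch the 0 TPM floor in at least 1 mouse.

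The summed TPM of the 26 receptors was 534 ± 73.6 (SD, n = 5) in the control group, 828 ± 152 in the IF group, 722 ± 126 in the PBMC group and 573 ± 91.2 in the PBMC-hCG group. Ngfr alone made up 10.2 to 14.05% of that sum in control mice and 27.2 to 37.1% in IF mice. The summed TPM of the 18 ligands was 104 ± 14.96, 115 ± 17.7, 119 ± 15.3 and 142 ± 13.8 in the same order. No test was applied to these sums, since a few abundant genes set them.

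RU486, together with its injection, was addressed by the comparison of the IF group with the control group. That comparison called 10 of the 38 tested genes (26.3%), against 4104 of all 18706 genes (21.9%). Ngfr, Tnfrsf11b, Tnfsf10, Tnfsf9, Tnfrsf1a and Tnfrsf1b were higher in the IF group (6 genes, 15.8%, against 13.4% of all genes called higher), and Tnfsf13b, Eda2r, Tnfrsf22 and Tnfrsf21 were lower (4 genes, 10.5%, against 8.53%). The median log2 fold change of the 38 was 0.22, compared with 0.02 over all tested genes, with 26 above 0 and 12 below. Fitted on these 2 groups alone, 6 of the 10 were called, and 2473 of all genes, with Tnfsf9, Tnfrsf1a, Eda2r and Tnfrsf11b lost (adjusted p = 0.0745 to 0.0977).

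PBMCs cultured without hCG were addressed by the comparison of the PBMC group with the IF group, in which limma called 0 of the 38 genes and 0 of all genes (0%). At an unadjusted p below 0.05 stood 5 of the 38 (13.2%) and 6.79% of all genes, namely Eda2r, Tnfsf8, Fas, Ngfr and Tnfsf13b. At an unadjusted exact permutation p below 0.05 (two-sided) stood 4 of the 38 (10.5%), Eda2r, Tnfrsf9, Tnfsf8 and Ngfr, and 6.02% of all genes. These genes were named after their values were seen.

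PBMCs cultured with hCG were addressed by the comparison of the PBMC-hCG group with the IF group, which called 10 of the 38 genes, against 13.6% of all genes. Tnfrsf19, Tnfsf13b, Eda2r, Tnfrsf14, Fas and Tnfsf10 were higher in the PBMC-hCG group, and Tnfrsf12a, Ngfr, Tnfsf9 and Tnfrsf26 were lower. The number of calls in this comparison was sensitive to leaving out 1 mouse, for the family and for all genes alike. Without IF replicate 2, 4 or 5, or without PBMC-hCG replicate 2, 3, 4 or 5, limma called 0 of the 38 genes and 0 to 34 of all genes, whereas without IF replicate 1 it called 9 (2334 of all genes), without IF replicate 3 it called 16 (5061 of all genes) and without PBMC-hCG replicate 1 it called 15 (4166 of all genes), compared with 2544 of all genes when all mice were fitted. The genes gained without IF replicate 3 were Tnfsf12, Tnfrsf1a, Edar, Ltbr, Tnfrsf11b and Tnfrsf23 (adjusted p = 0.0108 to 0.0370), and those gained without PBMC-hCG replicate 1 were the same except Tnfrsf11b (adjusted p = 0.0351 to 0.0459). At an unadjusted p below 0.05 stood 16 of the 38 (42.1%) and 35% of all genes. None of the 10 changed direction in any of these fits. In the 7 fits with 0 calls in the family, the adjusted p of these 10 genes was 0.0534 to 0.150. With all mice fitted it was 0.0258 to 0.0480.

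Culture with hCG was addressed by the comparison of the PBMC-hCG group with the PBMC group. This comparison cannot tell hCG acting on the cultured cells apart from any hCG carried into the horn with them. It called 0 of the 38 genes and 2 of all genes (0.0107%), 1 higher (0.00535%) and 1 lower (0.00535%). At an unadjusted p below 0.05 stood 7 of the 38 (18.4%) and 16.2% of all genes, and at an exact permutation p below 0.05 (two-sided, unadjusted) stood 7 of the 38 (18.4%) and 19.7% of all genes. Against the control group, the PBMC-hCG group had 9 of the 38 genes called (23.7%), compared with 31.8% of all genes. Edar, Tnfsf10, Tnfrsf19, Fas, Tnfrsf1b and Tnfsf12 were higher, and Tnfrsf12a, Tnfrsf22 and Tnfrsf21 lower. At an unadjusted p below 0.05 stood 11 of the 38 (28.9%) and 42.2% of all genes.

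**Figure D2:**
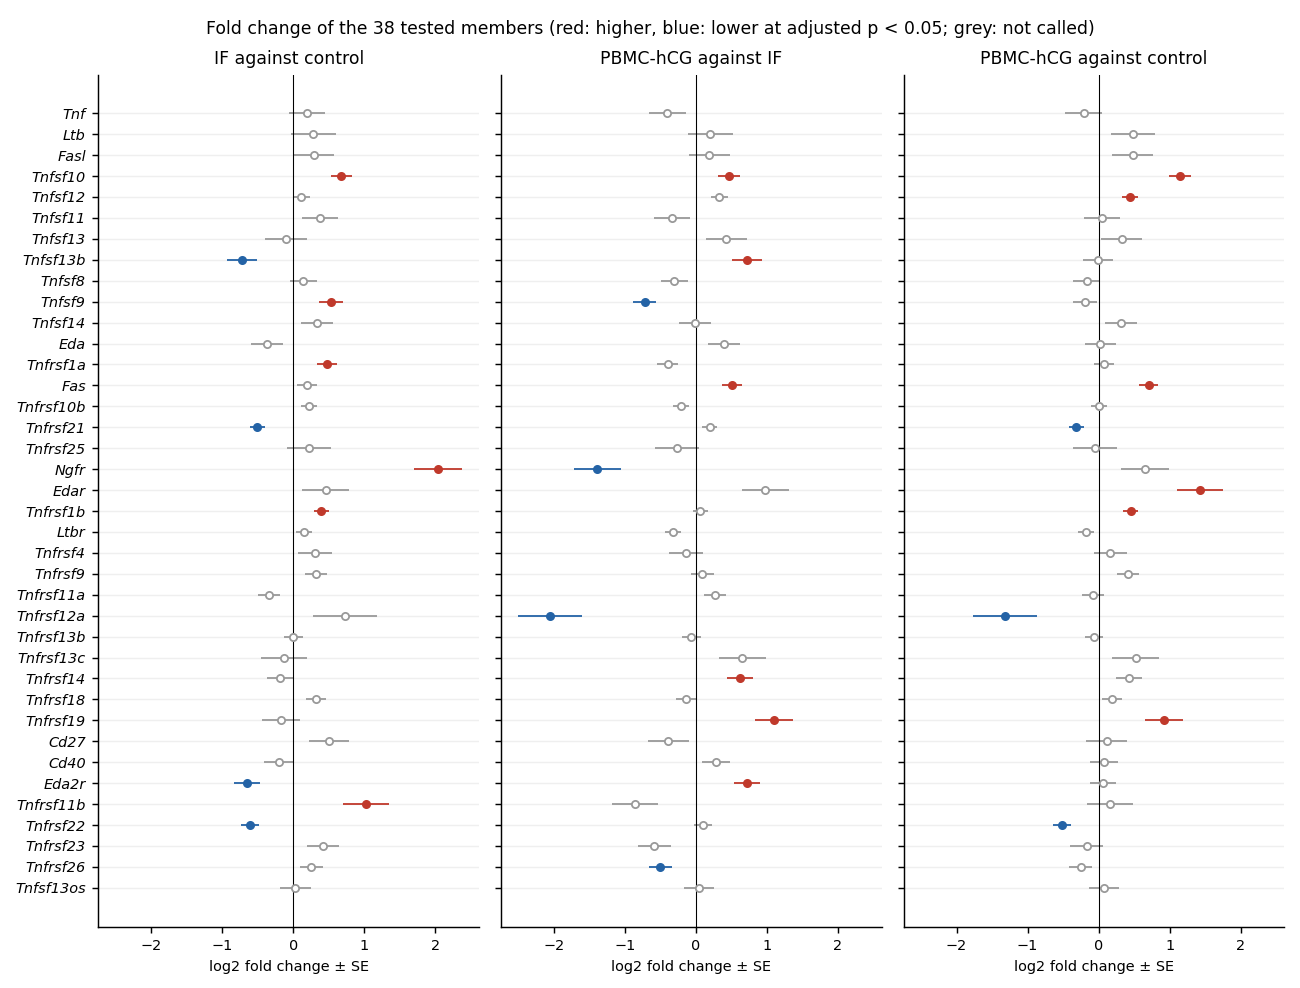
Log2 fold change with its SE for the 38 tested genes in the 3 comparisons that called any of them, red for higher and blue for lower at an adjusted p below 0.05 and grey for the rest. Ngfr has the largest rise after RU486 (2.04), and Tnfrsf12a the largest fall in the PBMC-hCG group compared with the IF group (-2.05).

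TNF and its receptors came first among the ligand systems. Tnf, the namesake cytokine, was scarce in every group. Its values were 0.582, 0.754, 0.687, 0.485 and 0.918 TPM in the control mice and 0.6099, 0.674, 1.296, 0.744 and 0.724 TPM in the IF mice, and 0.511, 0.682, 0.314, 0.659 and 0.732 TPM in the PBMC mice and 0.856, 0.282, 0.442, 0.683 and 0.747 TPM in the PBMC-hCG mice. All groups overlapped, and IF replicate 3 stood highest. The log2 fold change was 0.19 ± 0.26 (SE, adjusted p = 0.65) for IF against control and -0.40 ± 0.26 (SE, adjusted p = 0.269) for PBMC-hCG against IF. The 95% interval of the latter, -0.94 to 0.14, spans changes in both directions.

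Tnfrsf1a, the death-domain receptor through which most soluble TNF acts, rose in the IF group. It was at 202, 134, 193, 201 and 204 TPM in the controls and 252, 291, 177, 253 and 335 TPM in IF mice. It was at 225, 242, 262, 232 and 285 TPM in PBMC mice and 220.3, 181, 184, 173 and 215 TPM in PBMC-hCG mice. IF mice were above the controls except for IF replicate 3, and every PBMC-hCG mouse lay below every PBMC mouse. The log2 fold change of IF against control was 0.47 ± 0.14 (SE, adjusted p = 0.0224). This call was lost without control replicate 2, the lowest control (0.36, adjusted p = 0.0502), without IF replicate 2 (0.43, adjusted p = 0.0569) and without IF replicate 5 (0.38, adjusted p = 0.0701). For Tnfrsf1a, PBMC-hCG against IF gave -0.40 ± 0.14 (SE, adjusted p = 0.0617) and PBMC-hCG against PBMC -0.36 ± 0.14 (SE, adjusted p = 0.283), neither of which passed the test. The former passed without IF replicate 3 (-0.53, adjusted p = 0.0108) and without PBMC-hCG replicate 1 (-0.45, adjusted p = 0.0428).

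Tnfrsf1b, the TRAF-binding TNF receptor of immune and endothelial cells, was called higher than control in both the IF and the PBMC-hCG mice. Control mice had 12.6, 10.5, 12.98, 11.9 and 11.6 TPM and IF mice 16.8, 14.05, 17.3, 12.8 and 17.9 TPM. PBMC mice had 18.9, 15.99, 17.8, 17.1 and 17.8 TPM and PBMC-hCG mice 19.2, 18.3, 14.4, 16.6 and 13.7 TPM. Only IF replicate 4 lay within the control range among the IF mice, and no PBMC-hCG mouse did. On the log2 scale the difference was 0.39 ± 0.11 (SE, adjusted p = 0.0121) for IF against control and 0.45 ± 0.11 (SE, adjusted p = 0.00353) for PBMC-hCG against control, and it was 0.06 ± 0.11 (SE, adjusted p = 0.723) for PBMC-hCG against IF. Both calls held in every fit that left out 1 mouse.

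Of the lymphotoxins, Lta was at the edge of detection. It was listed at 0 TPM in 2 control mice and 1 IF mouse, with values of 0.486, 0, 0.271, 0 and 0.253 TPM in the controls, 0.461, 0.489, 0.104, 0 and 0.107 TPM in IF mice, 0.195, 0.776, 0.205, 0.252 and 0.152 TPM in PBMC mice and 0.145, 0.478, 0.151, 0.119 and 0.168 TPM in PBMC-hCG mice. No test was made on it. Ltb, which anchors lymphotoxin alpha in the membrane, was at 10.3, 20.6, 7.38, 6.28 and 5.84 TPM in the controls and 11.6, 9.21, 16.8, 6.36 and 13.5 TPM in IF mice. It was at 12.3, 11.1, 9.99, 13.1 and 8.54 TPM in PBMC mice and 16.4, 7.43, 13.2, 17.4 and 11.2 TPM in PBMC-hCG mice. Groups overlapped throughout, with control replicate 2 highest of all 20 mice, and the adjusted p of Ltb ranged from 0.251 for PBMC-hCG against control to 0.999 for PBMC against IF.

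Ltbr, the receptor of lymphotoxin beta and of LIGHT on stromal and epithelial cells, was abundant and even. Its levels were 87.4, 57.1, 81.9, 81.97 and 88.5 TPM in the controls and 83.4, 89.6, 69.5, 92.6 and 102 TPM in IF mice. They were 81.4, 84.5, 88.04, 74.1 and 90.6 TPM in PBMC mice and 79.97, 65.4, 64.5, 67.2 and 72.2 TPM in PBMC-hCG mice. PBMC-hCG mice were mostly lower than IF mice, with an overlap at IF replicate 3. The difference, -0.32 ± 0.11 (SE, adjusted p = 0.0623), did not pass the test, nor did IF against control with 0.15 ± 0.11 (SE, adjusted p = 0.396). Control replicate 2 was the lowest of all 20 mice.

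Among the ligands of cell death, TRAIL was called in 3 comparisons. Tnfsf10, at chr3:27317077-27339665, encodes TRAIL, which kills susceptible cells through a death receptor. It stood at 13.9, 21.2, 16.4, 16.9 and 17.9 TPM in the controls and 26.9, 28.2, 35.9, 25.04 and 22.5 TPM in IF mice. It stood at 25.4, 25.1, 24.1, 34.02 and 18.8 TPM in PBMC mice and 30.6, 39.9, 40.3, 46.9 and 33.97 TPM in PBMC-hCG mice. Every IF and every PBMC-hCG mouse was above every control mouse, and PBMC and IF mice overlapped widely. In log2 units the change was 0.68 ± 0.15 (SE, adjusted p = 0.00362) for IF against control and 1.14 ± 0.15 (SE, adjusted p = 3.02e-05), a 2.21-fold level, for PBMC-hCG against control. For Tnfsf10, PBMC-hCG against IF gave 0.47 ± 0.15 (SE, adjusted p = 0.048), which was lost without any 1 of 8 mice and with median-ratio scaling (adjusted p = 0.0604). For Tnfsf10, PBMC-hCG against PBMC gave 0.60 ± 0.15 (SE, adjusted p = 0.264). Both calls against the control group held in every fit that left out 1 mouse.

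Tnfrsf10b, the mouse death receptor for TRAIL, was not called in any comparison. Its levels were 10.5, 7.09, 8.96, 9.17 and 10.5 TPM in the controls, 9.07, 9.97, 11.4, 10.7 and 12.4 TPM in IF mice, 9.25, 8.805, 8.82, 10.2 and 10.2 TPM in PBMC mice and 10.3, 9.18, 9.16, 9.61 and 7.71 TPM in PBMC-hCG mice. All groups overlapped. The log2 fold change of PBMC-hCG against control was 0.00 ± 0.11 (SE, adjusted p = 0.992), with a 95% interval of -0.23 to 0.24, and that of IF against control was 0.22 ± 0.11 (SE, adjusted p = 0.18).

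Mouse TRAIL also binds decoys. Tnfrsf22, a decoy without a death domain, was at 10.01, 6.24, 8.74, 10.7 and 8.605 TPM in the controls and 5.52, 6.84, 5.08, 6.33 and 4.92 TPM in IF mice. It was at 6.03, 6.02, 5.76, 6.54 and 4.98 TPM in PBMC mice and 6.03, 6.11, 5.97, 6.03 and 6.36 TPM in PBMC-hCG mice. Apart from control replicate 2, the controls lay above every mouse that received RU486. Tnfrsf22 fell by the test in the IF group (-0.61 ± 0.13, SE, adjusted p = 0.00206) and in the PBMC-hCG group (-0.51 ± 0.13, SE, adjusted p = 0.00538) compared to the control group, and PBMC-hCG against IF gave 0.10 ± 0.13 (SE, adjusted p = 0.613). Its neighbor Tnfrsf23, another decoy, had group means of 6.59 ± 2.04, 8.75 ± 2.57, 7.48 ± 1.33 and 5.68 ± 1.15 TPM (SD, n = 5) for control, IF, PBMC and PBMC-hCG, and was not called.

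Tnfrsf26, the remaining member of that cluster and an orphan receptor, was at 2.75, 4.03, 2.78, 3.76 and 3.72 TPM in IF mice and 2.82, 2.22, 2.301, 2.65 and 1.85 TPM in PBMC-hCG mice. Control mice had 2.67, 2.51, 2.47, 2.81 and 3.74 TPM and PBMC mice 3.42, 2.78, 2.68, 2.08 and 3.24 TPM. The PBMC-hCG mice reached into the IF range only with replicate 1. The fall of PBMC-hCG against IF was -0.50 ± 0.16 (SE, adjusted p = 0.0474), close to the threshold.

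FAS, the receptor of FAS ligand, rose where its ligand did not pass the test. Fas was at 5.74, 7.76, 6.13, 5.87 and 4.59 TPM in the controls and 7.04, 6.77, 7.93, 6.22 and 6.17 TPM in IF mice. It was at 9.54, 10.5, 7.53, 9.68 and 6.59 TPM in PBMC mice and 8.76, 11.3, 9.24, 9.29 and 10.2 TPM in PBMC-hCG mice. Every PBMC-hCG mouse was above every control and every IF mouse. The log2 fold change was 0.70 ± 0.14 (SE, adjusted p = 0.000983) against control, a 1.63-fold level, and 0.51 ± 0.14 (SE, adjusted p = 0.0324) against IF. The former held in every fit that left out 1 mouse. For Fas, PBMC against IF gave 0.34 ± 0.14 (SE, adjusted p = 0.701).

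Fasl, carried mainly by cytotoxic T cells and natural killer cells, was at 1.85, 2.54, 1.63, 1.85 and 4.42 TPM in the controls and 3.097, 2.504, 4.702, 1.29 and 3.78 TPM in IF mice. PBMC mice had 2.73, 3.705, 2.81, 3.22 and 2.92 TPM and PBMC-hCG mice 3.24, 2.397, 3.09, 3.85 and 3.82 TPM. The control and IF ranges each enclosed all PBMC and PBMC-hCG mice. For Fasl, PBMC-hCG against control gave 0.48 ± 0.28 (SE, adjusted p = 0.21), and the direction against IF turned without IF replicate 4, the lowest of all 20 mice (from 0.19 to -0.08).

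Tnfrsf21, death receptor 6, which has no assigned ligand in the superfamily, was at 55.6, 46.9, 58.5, 59.1 and 43.02 TPM in the controls and 39.1, 37.96, 45.1, 28.98 and 34.2 TPM in IF mice. It was at 41.1, 40.5, 40.3, 41.4 and 34.8 TPM in PBMC mice and 36.99, 44.005, 44.6, 43.1 and 41.7 TPM in PBMC-hCG mice. Controls were mostly highest, with an overlap at control replicate 5. On the log2 scale the difference was -0.51 ± 0.11 (SE, adjusted p = 0.00195) for IF and -0.31 ± 0.11 (SE, adjusted p = 0.0302) for PBMC-hCG compared to control. The second of these calls was lost without any 1 of 5 mice (control replicate 1, 3 or 4, PBMC-hCG replicate 1 or 5), with log2 fold changes of -0.27 to -0.31 and adjusted p = 0.0534 to 0.0803. Tnfrsf25, the receptor of Tnfsf15, had group means of 3.43, 3.58, 2.76 and 3.09 TPM and was not called.

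TWEAK and its receptor were called in opposite directions in the PBMC-hCG group compared to the control group. The ligand, Tnfsf12, was at 35.2, 44.2, 38.8, 33.6 and 30.6 TPM in the controls and 38.8, 38.9, 50.7, 37.3 and 32.1 TPM in IF mice. It was at 46.9, 44.7, 45.2, 47.3 and 34.4 TPM in PBMC mice and 43.7, 55.1, 50.6, 52.3 and 45.3 TPM in PBMC-hCG mice. PBMC-hCG mice were highest on average, with control replicate 2 reaching into their range. In log2 units the change was 0.44 ± 0.12 (SE, adjusted p = 0.00815) against control and 0.33 ± 0.12 (SE, adjusted p = 0.0631) against IF, and only the former passed the test.

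Tnfrsf12a, or Fn14, is the TWEAK receptor and is known as a gene that injury and growth factors switch on. It was at 31.7, 17.97, 15.9, 27.9 and 59.1 TPM in the controls and 41.1, 37.6, 39.4, 34.7 and 89.7 TPM in IF mice. It was at 16.4, 21.7, 56.5, 23.2 and 94.03 TPM in PBMC mice and 22.9, 10.3, 9.04, 9.38 and 7.52 TPM in PBMC-hCG mice. Every PBMC-hCG mouse was below every IF mouse, and 4 of the 5 were below all other mice of the study. PBMC mice were spread widely, with replicate 5 the highest of all 20 mice and replicate 1 near the lowest controls. For Tnfrsf12a, PBMC-hCG against IF gave -2.05 ± 0.45 (SE, adjusted p = 0.0258), a 0.242-fold level, with an exact permutation p of 0.00794 (two-sided), the smallest that 5 against 5 mice can give. For Tnfrsf12a, PBMC-hCG against control gave -1.32 ± 0.45 (SE, adjusted p = 0.0321), and that call was lost without any 1 of 7 mice (log2 fold change -1.04 to -1.31, adjusted p = 0.0558 to 0.0988). For Tnfrsf12a, PBMC-hCG against PBMC gave -1.63 ± 0.45 (SE, adjusted p = 0.264) and an unadjusted p of 0.00189. For Tnfrsf12a, IF against control gave 0.73 ± 0.45 (SE, adjusted p = 0.273).

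**Figure D3:**
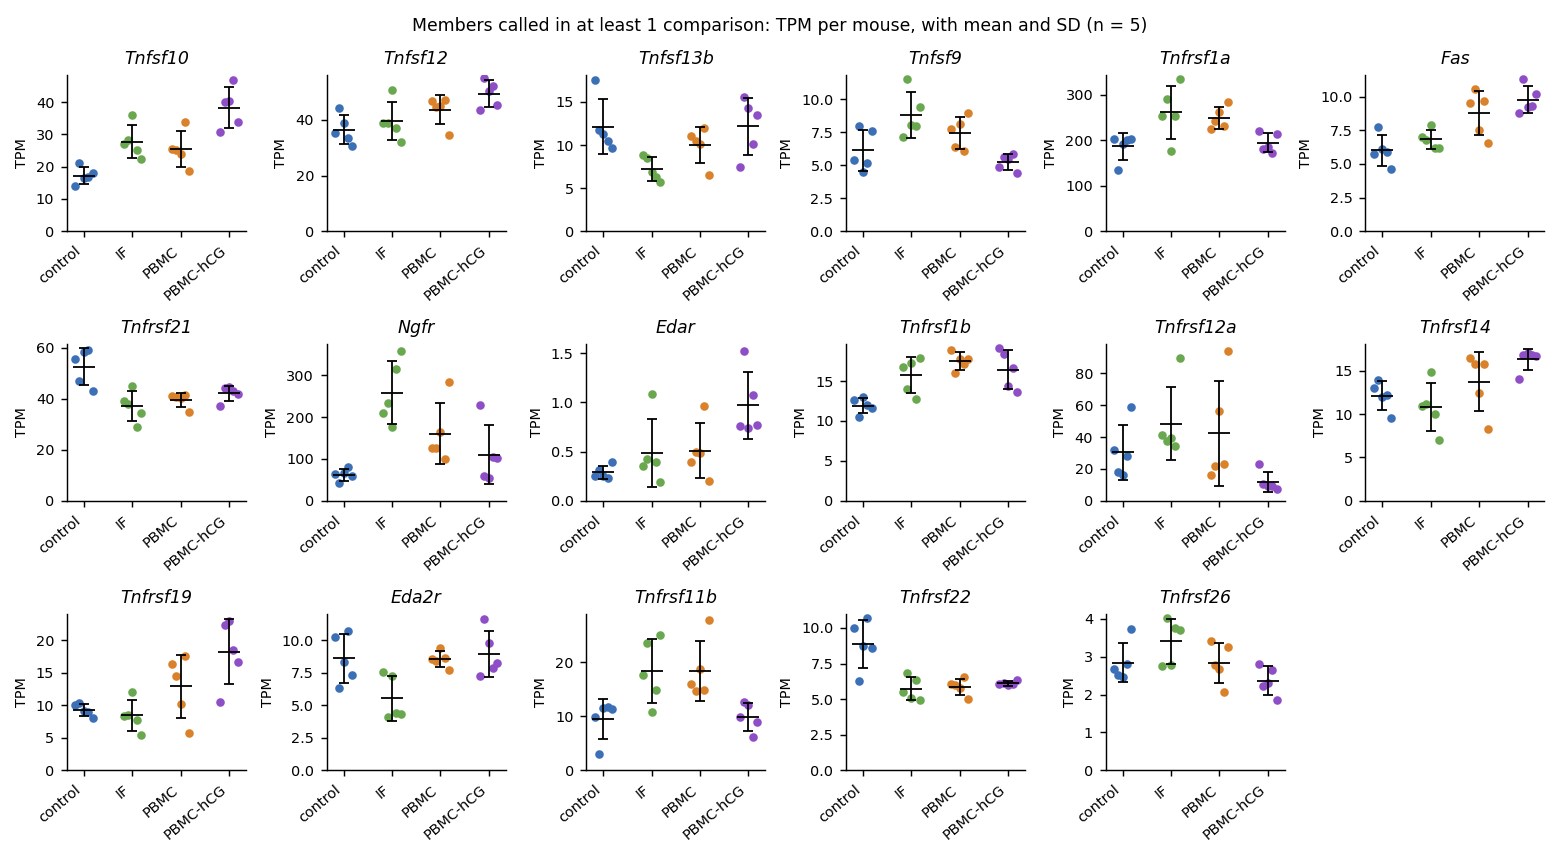
TPM per mouse for the 17 genes called in at least 1 comparison, with the group mean and SD (n = 5) as bars, on linear axes that start at 0. Ngfr rises from 62.2 TPM on average in the control group to 259 TPM in the IF group, and 4 of 5 PBMC-hCG mice hold the lowest Tnfrsf12a values.

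Ngfr had the largest rise of the family after RU486. The gene, at chr11:95568818-95587698, encodes the p75 neurotrophin receptor, which carries a death domain and is known from nerve, stromal and perivascular cells. It was at 63.7, 42.4, 65.6, 81.3 and 58.3 TPM in the controls and 211, 234, 175, 315 and 359 TPM in IF mice. It was at 126, 127, 165, 98.7 and 285 TPM in PBMC mice and 229.6, 59.7, 54.1, 105 and 102 TPM in PBMC-hCG mice. The lowest IF mouse had 175 TPM and the highest control 81.3 TPM, so that the groups did not overlap. For Ngfr, IF against control gave 2.04 ± 0.34 (SE, adjusted p = 0.00025), a 4.102-fold level with an exact permutation p of 0.00794 (two-sided). That call held in every fit that left out 1 mouse. For Ngfr, PBMC-hCG against IF gave -1.39 ± 0.34 (SE, adjusted p = 0.0287), a 0.382-fold level, with PBMC-hCG replicate 1 within the IF range. For Ngfr, PBMC against IF gave -0.74 ± 0.34 (SE, adjusted p = 0.724) and PBMC-hCG against control 0.65 ± 0.34 (SE, adjusted p = 0.151), neither of which passed. The 95% interval of the last, -0.06 to 1.35, includes both the control level and a level more than 2-fold above it.

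In the RANKL system the decoy was called and the ligand was not. Tnfsf11 (RANKL), the inducer of osteoclasts and of mammary epithelium under progesterone, was at 0.396, 0.595, 0.269, 0.666 and 0.1901 TPM in the controls and 0.598, 0.616, 0.567, 0.447 and 0.472 TPM in IF mice. PBMC mice had 0.429, 0.349, 0.611, 0.504 and 0.304 TPM and PBMC-hCG mice 0.667, 0.353, 0.4498, 0.236 and 0.408 TPM. All groups overlapped, and IF against control gave 0.38 ± 0.25 (SE, adjusted p = 0.32). Tnfrsf11a (RANK), its signaling receptor, was at 4.98, 3.36, 6.38, 5.59 and 5.802 TPM in the controls and 4.86, 3.79, 3.99, 4.37 and 3.24 TPM in IF mice. PBMC mice had 5.296, 5.53, 5.59, 4.29 and 3.86 TPM and PBMC-hCG mice 4.61, 5.42, 4.61, 4.56 and 5.06 TPM. For Tnfrsf11a, IF against control gave -0.34 ± 0.16 (SE, adjusted p = 0.132), and without control replicate 2 the same comparison passed the test (-0.49, adjusted p = 0.0107).

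Tnfrsf11b, osteoprotegerin, is a secreted decoy for RANKL and TRAIL. It was at 9.802, 3.09, 11.6, 11.7 and 11.4 TPM in the controls and 17.7, 23.6, 10.8, 14.9 and 25.1 TPM in IF mice. It was at 15.9, 14.7, 18.7, 14.8 and 27.8 TPM in PBMC mice and 9.88, 12.7, 12.04, 6.18 and 8.96 TPM in PBMC-hCG mice. IF and PBMC mice were high, with IF replicate 3 inside the control range, and every PBMC-hCG mouse lay below every PBMC mouse. For Tnfrsf11b, IF against control gave 1.02 ± 0.33 (SE, adjusted p = 0.0305), a 2.03-fold level. This rested in part on control replicate 2, without which it was 0.66 (adjusted p = 0.0530), and the call was also lost without IF replicate 2 (0.92, adjusted p = 0.0745) or 5 (0.89, adjusted p = 0.0822). For Tnfrsf11b, PBMC-hCG against IF gave -0.86 ± 0.33 (SE, adjusted p = 0.0767) and PBMC-hCG against PBMC -0.88 ± 0.33 (SE, adjusted p = 0.281).

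**Figure D4:**
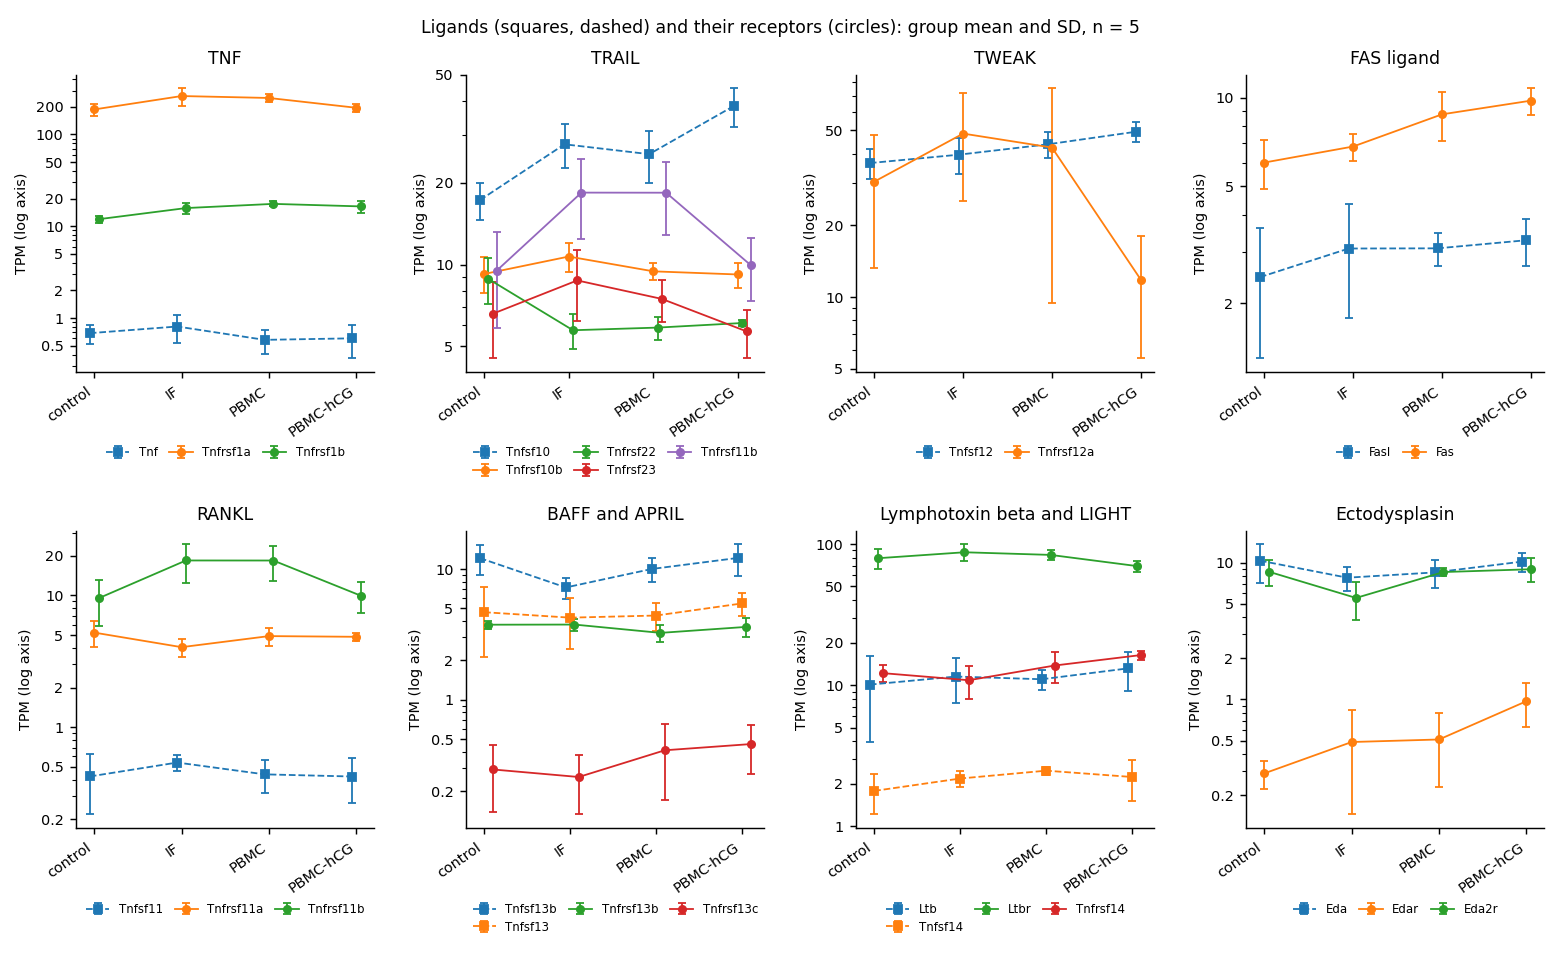
Group mean and SD (n = 5) in TPM on log axes for 8 ligand and receptor systems, with ligands as squares on dashed lines and receptors as circles on solid lines. In the TRAIL panel the ligand Tnfsf10 climbs from 17.3 to 38.3 TPM while Tnfrsf10b stays between 9.20 and 10.7 TPM, and in the RANKL panel the decoy Tnfrsf11b is near 18.4 TPM in the IF and PBMC groups only.

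BAFF fell after RU486 and was higher again in the PBMC-hCG group. Tnfsf13b encodes BAFF, the survival factor of B cells and plasma cells, and lies at chr8:10006229-10036000. It was at 17.6, 11.7, 11.3, 10.5 and 9.63 TPM in the controls and 8.83, 8.49, 6.89, 6.25 and 5.74 TPM in IF mice. It was at 11.01, 10.5, 10.2, 12.001 and 6.53 TPM in PBMC mice and 7.49, 15.5, 14.3, 10.1 and 13.5 TPM in PBMC-hCG mice. No IF mouse reached the lowest control. For Tnfsf13b, IF against control gave -0.73 ± 0.21 (SE, adjusted p = 0.0172), lost without control replicate 1, the highest mouse (-0.59, adjusted p = 0.0526). For Tnfsf13b, PBMC-hCG against IF gave 0.72 ± 0.21 (SE, adjusted p = 0.0372) and PBMC-hCG against control -0.01 ± 0.21 (SE, adjusted p = 0.976), with a 95% interval of -0.45 to 0.43. Summed plasma cell markers had medians of 208 TPM in control, 52.6 TPM in IF, 56.9 TPM in PBMC and 33.0 TPM in PBMC-hCG mice, and their part in the Tnfsf13b values was not tested.

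The other genes of the BAFF system that were chosen as family members were not called in any comparison. The choice of members left out Tnfrsf17, so this statement does not cover it. Tnfsf13 (APRIL), the related plasma cell factor, had group means of 4.68 ± 2.57, 4.25 ± 1.79, 4.41 ± 1.08 and 5.47 ± 1.05 TPM (SD, n = 5) for control, IF, PBMC and PBMC-hCG. Of the receptors, Tnfrsf13b (TACI) had means of 3.76, 3.76, 3.25 and 3.61 TPM. Tnfrsf13c (the BAFF receptor of B cells) had 0.293, 0.256, 0.411 and 0.458 TPM. The antisense RNA Tnfsf13os had 2.06, 2.17, 2.15 and 2.26 TPM.

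Among the costimulatory ligands, which pass signals between T cells and antigen-presenting cells, Tnfsf9 was called. Tnfsf9 (4-1BB ligand) was at 5.397, 7.96, 4.47, 5.19 and 7.62 TPM in the controls and 7.11, 11.5, 8.08, 7.95 and 9.39 TPM in IF mice. It was at 7.79, 6.35, 8.11, 6.08 and 8.97 TPM in PBMC mice and 4.88, 5.66, 5.46, 5.85 and 4.397 TPM in PBMC-hCG mice. Every PBMC-hCG mouse lay below every IF and every PBMC mouse. For Tnfsf9, PBMC-hCG against IF gave -0.72 ± 0.17 (SE, adjusted p = 0.0279), and PBMC-hCG against PBMC, with the same lack of overlap, -0.49 ± 0.17 (SE, adjusted p = 0.271). For Tnfsf9, IF against control gave 0.53 ± 0.17 (SE, adjusted p = 0.0268), a call lost without control replicate 1, 3 or 4 or IF replicate 2 or 5 (log2 fold change 0.43 to 0.50, adjusted p = 0.0595 to 0.0825) and with median-ratio scaling (adjusted p = 0.0503). Its receptor Tnfrsf9 (4-1BB) had means of 11.9 ± 3.39, 14.3 ± 0.681, 16.3 ± 0.863 and 15.3 ± 1.63 TPM (SD, n = 5), and PBMC-hCG against control gave 0.41 ± 0.16 (SE, adjusted p = 0.0501), just short of the threshold.

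The other costimulatory ligands were low. Tnfsf14 (LIGHT) had group means between 1.78 TPM in control and 2.47 TPM in PBMC mice, and Tnfsf8 (CD30 ligand) between 0.744 TPM in PBMC and 1.06 TPM in IF mice. Cd70 was listed at 0 TPM in 3 control, 3 IF and 1 PBMC mouse and ranged up to 0.712 TPM in PBMC-hCG mice. Cd40lg, the helper T cell ligand, was at 0 TPM in 2 control, 1 IF and 1 PBMC mouse, with a highest value of 0.641 TPM. Tnfsf4 (OX40 ligand), Tnfsf15 and Tnfsf18 (GITR ligand) did not exceed 0.610, 0.175 and 0.150 TPM.

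Of the costimulatory receptors, Tnfrsf14 was called. Tnfrsf14 (HVEM), which binds LIGHT, was at 13.02, 14.01, 11.99, 12.2 and 9.53 TPM in the controls and 11.002, 11.2, 14.8, 10.04 and 7.02 TPM in IF mice. It was at 16.5, 15.8, 12.5, 15.8 and 8.31 TPM in PBMC mice and 14.1, 16.8, 17.1, 16.9 and 16.8 TPM in PBMC-hCG mice. PBMC-hCG mice were above all controls and overlapped with IF replicate 3. For Tnfrsf14, PBMC-hCG against IF gave 0.62 ± 0.18 (SE, adjusted p = 0.0382), and against control 0.43 ± 0.18 (SE, adjusted p = 0.0809), which did not pass although the groups did not overlap, and passed with these 2 groups fitted alone (adjusted p = 0.0134). Not called were Tnfrsf18 (GITR, group means 5.59 to 7.17 TPM), Cd40 (3.37 to 4.102 TPM), Cd27 (1.25 to 1.84 TPM) and Tnfrsf4 (OX40, 1.37 to 1.74 TPM). Tnfrsf8 (CD30) was listed at 0 TPM in 3 control mice and 1 IF mouse and had its highest value, 0.297 TPM, in a PBMC mouse.

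The receptors of ectodysplasin, a ligand of hair, gland and tooth development, were both called. Eda2r, the receptor of one splice form, was at 10.2, 6.34, 8.36, 10.7 and 7.35 TPM in the controls and 7.52, 4.13, 7.24, 4.43 and 4.29 TPM in IF mice. It was at 8.58, 8.38, 9.395, 8.61 and 7.74 TPM in PBMC mice and 7.23, 11.7, 9.78, 7.84 and 8.26 TPM in PBMC-hCG mice. IF mice were low, with replicates 1 and 3 reaching into the control and PBMC-hCG ranges, and PBMC mice lay above all IF mice. For Eda2r, IF against control gave -0.65 ± 0.18 (SE, adjusted p = 0.0156), a call lost when these 2 groups were fitted alone (adjusted p = 0.0745), and PBMC-hCG against IF 0.72 ± 0.18 (SE, adjusted p = 0.0292). For Eda2r, PBMC against IF gave 0.67 ± 0.18 (SE, adjusted p = 0.623) with an exact permutation p of 0.00794 (two-sided, unadjusted), and Eda2r and Tnfrsf9 were the 2 of the 38 genes (5.26%) with no overlap in that comparison, against 1.01% of all genes.

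Edar, the death-domain receptor of the other splice form, was low in every group. It was at 0.249, 0.317, 0.251, 0.233 and 0.3896 TPM in the controls and 0.358, 0.423, 1.08, 0.391 and 0.188 TPM in IF mice. It was at 0.397, 0.498, 0.486, 0.964 and 0.203 TPM in PBMC mice and 0.756, 1.52, 0.734, 1.08 and 0.766 TPM in PBMC-hCG mice. Each PBMC-hCG mouse exceeded every control mouse, and IF replicate 3 and PBMC replicate 4 reached the PBMC-hCG range. For Edar, PBMC-hCG against control gave 1.43 ± 0.33 (SE, adjusted p = 0.003) and against IF 0.98 ± 0.33 (SE, adjusted p = 0.0527), and only the former passed. Its adaptor Edaradd was lower than control in both groups, at 0.321 ± 0.0860 TPM in IF and 0.408 ± 0.115 TPM in PBMC-hCG against 1.06 ± 0.452 TPM (SD, n = 5). The ligand Eda had means of 10.4 ± 3.27, 7.77 ± 1.53, 8.49 ± 1.93 and 10.2 ± 1.61 TPM and was not called.

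Tnfrsf19 (TROY), an orphan receptor of progenitor and epithelial cells, rose in the PBMC-hCG group. It was at 9.97, 10.3, 9.09, 8.93 and 8.07 TPM in the controls and 8.35, 8.54, 11.99, 7.74 and 5.46 TPM in IF mice. It was at 16.4, 14.5, 10.2, 17.5 and 5.76 TPM in PBMC mice and 10.6, 22.3, 22.9, 18.5 and 16.7 TPM in PBMC-hCG mice. PBMC-hCG mice lay above every control mouse, narrowly for PBMC-hCG replicate 1, and PBMC mice ranged from below to above the controls. For Tnfrsf19, PBMC-hCG against IF gave 1.09 ± 0.27 (SE, adjusted p = 0.0287), a 2.14-fold level, and against control 0.92 ± 0.27 (SE, adjusted p = 0.0135). The latter held in every fit that left out 1 mouse.

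Genes behind the receptors were followed in 5 lists, with 71 of 76 genes tested. The lists covered 22 adaptors and kinases, 14 genes of NF-kappaB and its inhibitors, 11 negative regulators and ubiquitin editors, 5 genes of ligand shedding and 24 genes listed as TNF-inducible. In the IF group compared to the control group 17 of the 71 were called higher and 3 lower, against 13.4% and 8.53% of all genes. In the PBMC-hCG group compared to the IF group 2 of the 71 were higher and 14 lower, against 7.61% and 5.99% of all genes. The comparison of PBMC-hCG with control gave 19 of the 71 higher and 5 lower, against 20.2% and 11.6% of all genes. PBMC against IF and PBMC-hCG against PBMC gave 0, with none of the 71 past the adjusted threshold.

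Of the 5 shedding genes, 3 were called higher in IF against control. These were Rhbdf2, the iRhom partner of ADAM17 (0.69 ± 0.12, SE, adjusted p = 0.000319), Adam10 (0.28 ± 0.07, SE, adjusted p = 0.00486) and Adam17, the TNF sheddase (0.32 ± 0.08, SE, adjusted p = 0.00779). The same 3 genes were called higher in PBMC-hCG against control, with 0.34 ± 0.08 (SE, adjusted p = 0.00331) for Adam17, 0.28 ± 0.07 (SE, adjusted p = 0.00349) for Adam10 and 0.38 ± 0.12 (SE, adjusted p = 0.0193) for Rhbdf2. In PBMC-hCG against IF, Rhbdf1 was lower (-0.35 ± 0.09, SE, adjusted p = 0.0309).

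Of the 22 adaptors and kinases, 7 were called higher and 1 lower in IF against control. Those with the smallest adjusted p were Tab2, which links TRAF to the kinase TAK1 (0.36 ± 0.05, SE, adjusted p = 3.15e-05), Edaradd (-1.37 ± 0.26, SE, adjusted p = 0.00101) and Birc3, the ubiquitin ligase cIAP2 (0.30 ± 0.07, SE, adjusted p = 0.00434). The same 3 led PBMC-hCG against control, with 0.41 ± 0.05 (SE, adjusted p = 9.13e-06) for Tab2, 0.35 ± 0.07 (SE, adjusted p = 0.000863) for Birc3 and -1.11 ± 0.26 (SE, adjusted p = 0.00385) for Edaradd, and 6 of the list were higher and 1 lower. In PBMC-hCG against IF, Map3k5, the stress kinase ASK1 (-0.62 ± 0.14, SE, adjusted p = 0.0287), and Map3k14, the kinase NIK of the noncanonical NF-kappaB route (-0.42 ± 0.11, SE, adjusted p = 0.0292), were lower, and Birc2, the ubiquitin ligase cIAP1, was higher (0.37 ± 0.12, SE, adjusted p = 0.0451).

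Among NF-kappaB genes, the subunits Relb (0.34 ± 0.07, SE, adjusted p = 0.00236), Nfkb1 (0.23 ± 0.05, SE, adjusted p = 0.00417) and Rela (0.27 ± 0.07, SE, adjusted p = 0.00942) were called higher in IF against control. Nfkb1 (0.31 ± 0.05, SE, adjusted p = 0.000218) and Relb (0.31 ± 0.07, SE, adjusted p = 0.00368) were called in PBMC-hCG against control. In PBMC-hCG against IF 4 of 14 were lower, led by the kinase subunit Chuk (-0.41 ± 0.11, SE, adjusted p = 0.0292), the inhibitor Nfkbia (-0.38 ± 0.12, SE, adjusted p = 0.0444) and Bcl3 (-0.93 ± 0.29, SE, adjusted p = 0.0449). Of the negative regulators, Otud7b (0.26 ± 0.06, SE, adjusted p = 0.00234) and Tnip2 (0.25 ± 0.07, SE, adjusted p = 0.0185) were higher in IF against control. Rnf31, of the linear ubiquitin ligase (0.40 ± 0.09, SE, adjusted p = 0.00255), Otud7b (0.24 ± 0.06, SE, adjusted p = 0.00339) and Tnip1 (0.20 ± 0.06, SE, adjusted p = 0.0109) were higher in PBMC-hCG against control, and Tank, which holds TRAF proteins, was lower in PBMC-hCG against IF (-0.53 ± 0.16, SE, adjusted p = 0.0391).

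Of the genes listed as TNF-inducible, 19 were tested. The heading is that of the list only. Whether TNF induces its genes, among them Litaf and Tnfaip8l2, was not tested, and the list was chosen with earlier results of these data known. In PBMC-hCG against IF, 6 of them were lower and 1 higher, led by Tnfaip2 (-1.25 ± 0.30, SE, adjusted p = 0.0287), with 15.4 ± 4.04 against 40.6 ± 22.8 TPM (SD, n = 5), Litaf (-0.36 ± 0.10, SE, adjusted p = 0.0363) and Tnfaip8, which was higher (0.33 ± 0.10, SE, adjusted p = 0.0379). The median log2 fold change of the 19 was -0.39, compared with 0.05 over all tested genes. In IF against control, Litaf was higher (0.78 ± 0.10, SE, adjusted p = 3.12e-05), and Sod2 (-0.31 ± 0.06, SE, adjusted p = 0.00156) and Tnfaip8 (-0.34 ± 0.10, SE, adjusted p = 0.0158) were lower. In PBMC-hCG against control, 4 were higher and 4 lower, led by Sod2, the mitochondrial superoxide dismutase, which was lower (-0.41 ± 0.06, SE, adjusted p = 0.0001), and by Tnfaip8l2 (0.44 ± 0.09, SE, adjusted p = 0.00146) and Litaf (0.42 ± 0.10, SE, adjusted p = 0.00531), which were higher. As stated above, the comparison of PBMC-hCG with IF had 0 to 34 calls over all genes without any 1 of 7 mice.

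For the family as a whole, 3 of the 38 genes had no overlap between IF and control mice (7.89%, against 12.8% of all genes), 3 between PBMC-hCG and IF mice (against 7.24%), 3 between PBMC-hCG and PBMC mice (against 3.46%) and 6 between PBMC-hCG and control mice (15.8%, against 18.3%). With a fold of at least 2 and an unadjusted p below 0.05, the rule of the study, 2 genes passed in IF against control (Ngfr and Tnfrsf11b, 5.26% against 4.03% of all genes), 0 in PBMC against IF (against 0.438%), 3 in PBMC-hCG against IF (Tnfrsf12a, Ngfr and Tnfrsf19, 7.89% against 2.31%), 1 in PBMC-hCG against PBMC (Tnfrsf12a, 2.63% against 0.893%) and 3 in PBMC-hCG against control (Edar, Tnfsf10 and Tnfrsf12a, 7.89% against 4.74%).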

How the data were processed

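RNA-seq of 20 whole mouse uterine horns (4 groups of 5 mice) was analysed from the deposited table of TPM. According to the methods, the authors trimmed reads with Trimmomatic, aligned them to mm10 with HISAT2 and estimated levels with StringTie, and they tested counts with edgeR, while only the TPM values were used here. TPM keep no sequencing depth, so counting error is unknown and no floor for a value of 0 can be given. Libraries were grouped by the labels, and nothing in the labels says which mice were handled together.

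Values were taken as log2(TPM + 0.1), where 0.1 is the pseudocount, for 18706 genes above 0 TPM in all 20 libraries. One model over the 4 groups was fitted with limma 3.58.1 (variance trend, R 4.3.3), with Benjamini-Hochberg adjustment within each of 5 comparisons and a threshold of 0.05. Exact two-sided permutation tests over 252 arrangements cannot go below 0.00794. Simulated data for IF against control had 200 of 18706 genes changed, with independent normal noise. Recovered were 82 of 102 genes changed 2-fold and 94 of 98 changed 4-fold, with 5 false calls among the unchanged genes. Folds below 2, wider changes as in the real data and the other comparisons were not simulated. Positions came from RefSeq (GRCm38.p6), matched by gene ID for all 45 genes, and promoter windows for 34 of them. Members called in at least 1 comparison are described mouse by mouse, as are Tnf, Lta, Ltb, Fasl, Tnfsf11, Ltbr, Tnfrsf10b and Tnfrsf11a whatever their result. In the pathway lists, up to 3 called genes with the smallest adjusted p are named per list and comparison. Members and lists were chosen with earlier results of these data known. Alternatives were other pseudocounts, filters, scalings and models, the fold rule of the study, and leaving out each mouse.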

Additional observations from a re-analysis of the deposited data

Results flagged for a closer look

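Single mice stood apart from their group in 12 of 100 sets of 5 values, by a gap to the nearest mouse above 0.71 of the range of the group. Chance gives about 1 in 20 for a single set. The sets share the same mice and are not independent, so no excess over chance is claimed. The cause was not tested.

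Control replicate 2 was lowest of its group for Tnfrsf1a (133.8 TPM, nearest 192.9), Ltbr (57.1 TPM, nearest 81.9) and Tnfrsf11b (3.09 TPM, nearest 9.80). PBMC replicate 5 was lowest for Tnfsf12 (34.4 TPM, nearest 44.7), Tnfsf13b (6.53 TPM, nearest 10.2) and Tnfrsf21 (34.8 TPM, nearest 40.3). Tnfrsf12a was highest in IF replicate 5 (89.7 TPM, nearest 41.1) and in PBMC-hCG replicate 1 (22.9 TPM, nearest 10.3), and Tnfrsf14 was lowest in PBMC-hCG replicate 1 (14.1 TPM, nearest 16.8). Tnf was highest in IF replicate 3 (1.30 TPM, nearest 0.744). Lta was highest in PBMC replicate 2 (0.776 TPM, nearest 0.252) and PBMC-hCG replicate 2 (0.478 TPM, nearest 0.168).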

How the results depend on the processing

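The counts of called family members (10, 0, 10, 0 and 9 of 38 for IF against control, PBMC against IF, PBMC-hCG against IF, PBMC-hCG against PBMC and PBMC-hCG against control) were recomputed under each alternative. With a fold of at least 2 and an unadjusted p below 0.05 they were 2, 0, 3, 1 and 3. Without a filter, PBMC-hCG against IF gave 5 (812 of all genes, compared with 2544), and fitted on the 2 groups compared, IF against control gave 6 (2473 of all genes, compared with 4104). Leaving out 1 mouse gave 7 to 10 for IF against control, 0 to 16 for PBMC-hCG against IF and 7 to 11 for PBMC-hCG against control, and 0 for the other comparisons. The cause was not tested. No called gene changed direction. Among genes that were not called, the log2 fold change of PBMC-hCG against IF turned for Tnfrsf22 with quantile normalization (-0.0038) and, without IF replicate 4, for Fasl (-0.082, range over the fits without 1 mouse -0.082 to 0.37) and Tnfrsf1b (-0.013, range -0.013 to 0.12). With median-ratio scaling, 5 of 10 calls in PBMC-hCG against IF were higher and 5 lower, compared with 6 and 4.

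Of 30 same-numbered pairs of mice 8 correlated above 0.1 (range -0.247 to 0.457) and 7 correlated best with their own number, and the labels tie no number to a litter or day, so the numbers were not taken as pairs. Replicates 5 of control, IF and PBMC did correlate with each other (0.396, 0.272 and 0.457), each best with its own number, and were the highest of their groups for Tnfrsf12a and the lowest for Tnfrsf14 and Tnfrsf19. Replicate 5 of PBMC-hCG did not correlate with them (-0.0591 to -0.0896). With the replicate block the counts were 10, 0, 12, 0 and 10, and those over all genes 4153, 0, 3215, 2 and 6071. In PBMC-hCG against IF the block lost Tnfrsf26 (adjusted p = 0.0558) and gained Tnfsf12, Tnfrsf1a and Edar (adjusted p = 0.0245 to 0.0496), and in PBMC-hCG against control it gained Tnfrsf14 (adjusted p = 0.0367) and kept 9. The depth behind the TPM is unknown, and 5 mice per group limit the precision.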
